A study of Mus musculus with 41 samples.

Results

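Iron handling and ferroptosis are represented here by 10 genes of the pathway: Tfrc, Slc11a2, Fth1, Ftl1, Ncoa4, Slc40a1, Cp, Acsl4, Gpx4 and Aifm2. They were chosen with earlier results of these data known. They are 10 of the 48795 genes in the count table of a mouse kidney study, and all 10 passed the filter on low counts in both cohorts. In the first cohort 24 male mice aged 8 to 10 weeks gave 4 groups of 6 libraries. Control mice had no ischemia. The other mice of that cohort were held at a core temperature of 34 °C while blood flow to the left kidney was stopped for 21 min and then restored (unilateral ischemia-reperfusion injury, UIRI). UIRI d3 kidneys were taken on day 3. UIRI d7 mice had a sham operation in place of nephrectomy on day 3 and were harvested on day 7. UIRI+Nx d7 mice lost the uninjured kidney (nephrectomy, Nx) on day 3 and were also harvested on day 7. The second cohort held 16 libraries titled WT: IRd3 (n = 6) and IRd7 (n = 6), with UIRI alone, and IRNxd7 (n = 4), with UIRI and Nx. It had no uninjured group, and its sex, age, ischemia time, day of nephrectomy and any sham operation are not given in the labels. The labels name no strain, and which kidney was sampled in Control mice is not stated. Each library came from a piece of the kidney pole, so fewer cells of a type and less of an RNA per cell cannot be told apart.

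Cells take up iron bound to transferrin through the transferrin receptor (Tfrc) and move it out of endosomes through DMT1 (Slc11a2). Iron that is not used is stored in ferritin, a shell of heavy (Fth1) and light (Ftl1) chains that Ncoa4 delivers to lysosomes for breakdown, and it leaves the cell through ferroportin (Slc40a1), helped by the ferroxidase ceruloplasmin (Cp). Ferroptosis is a cell death driven by iron-dependent peroxidation of membrane lipids. Acsl4 loads polyunsaturated fatty acids into those lipids, Gpx4 reduces their peroxides with glutathione, and Aifm2 (FSP1) blocks the chain reaction by keeping coenzyme Q reduced. Proximal tubule cells, which take up filtered iron and are rich in mitochondria, are a known site of such death after ischemia.

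Several of these mRNAs carry iron responsive elements, short stem loops bound by iron regulatory proteins when iron is scarce. Binding in a 3′ UTR is known to protect the Tfrc mRNA from decay, while binding in a 5′ UTR blocks translation of ferritin and ferroportin and need not move the mRNA. The elements are shown because they part the genes whose mRNA level can follow this switch from those whose protein can move without it. A search of the UTRs of GENCODE M21 transcripts (build GRCm38, transcript strand only) looked for a C, 5 bases, the loop CAGTGN and 5 bases that pair with the first 5 in at least 4 of 5 places. It matched 5 of the 10 genes, against 0.941% of 21901 coding genes in a 5′ UTR and 3.982% in a 3′ UTR. Each 29-base match is given 5′ to 3′ with the loop in capitals.
Tfrc 3′ UTR, chr16:32631219-32631247, plus strand: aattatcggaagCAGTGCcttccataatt
Tfrc 3′ UTR, chr16:32631598-32631626, plus strand: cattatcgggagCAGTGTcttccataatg
Tfrc 3′ UTR, chr16:32631663-32631691, plus strand: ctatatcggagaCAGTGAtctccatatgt
Tfrc 3′ UTR, chr16:32631710-32631738, plus strand: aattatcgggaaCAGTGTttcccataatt
Fth1 5′ UTR, chr19:9982732-9982760, plus strand: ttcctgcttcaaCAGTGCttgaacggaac
Ftl1 5′ UTR, chr7:45459779-45459807, minus strand: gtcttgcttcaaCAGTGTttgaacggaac
Slc40a1 5′ UTR, chr1:45925465-45925493, minus strand: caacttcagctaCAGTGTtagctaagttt
Slc11a2 3′ UTR, chr15:100395153-100395181, minus strand: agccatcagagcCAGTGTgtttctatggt
The Slc11a2 match paired in 4 of 5 places and the other 7 in 5 of 5. No match in Acsl4, Gpx4, Aifm2, Ncoa4 or Cp says only that these letters are not in their annotated UTRs. A match is a description of sequence and not a measured site.

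Total counts ran from 5090418 to 33362940 per library, with group medians from 10203096 (WT IRd7) to 18461345 (Control). Levels are in CPM, the usual depth-scaled count, on library sizes adjusted by TMM, and differences are log2 fold changes from edgeR's quasi-likelihood test, called at a Benjamini-Hochberg adjusted p under 0.05 over all genes. Markers of podocytes and 4 tubule segments were present in every group. Scaling by total count instead raised the median log2 fold change of all genes by 0.26 (UIRI d3), 0.35 (UIRI d7) and 0.27 (UIRI+Nx d7) against Control, and turned the split of all calls from 2793 higher and 2338 lower to 4370 and 1344, from 3370 and 2847 to 5738 and 1591, and from 2709 and 2200 to 4293 and 1316. Fold changes here are relative to the TMM scale. The 3′ end read by this assay is shared with other genes for Gpx4 (85.8% of 50-base words in the last 400 bases), Ftl1 (75.5%) and Fth1 (13.7%), and for none of the other 7 genes, so counts of Gpx4 and Ftl1 are uncertain. Column names part the libraries into blocks, named 1a, 1b and 2b for the first cohort and 2a and 2c for the other, which the labels do not call batches. No UIRI d7 library lay in block 2b, which held libraries of each other group of the first cohort. In comparisons with UIRI d7, block and group can therefore be told apart only in part. Macrophage markers (10 genes) summed to 182 to 394 CPM in Control, 517 to 1101 in UIRI d3, 1552 to 3776 in UIRI d7 and 1187 to 2246 in UIRI+Nx d7. Proximal tubule markers (8 genes) summed to 9497 to 11725, 4053 to 4700, 2721 to 3756 and 2110 to 4703 CPM in the same order.

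Against uninjured kidneys, 2 of the 10 genes were called in UIRI d3, with ceruloplasmin higher and the transferrin receptor lower. Of all genes tested, 32.7% were called in that comparison (17.8% higher and 14.9% lower), so the share among the 10 was not above the background. In UIRI d7 4 of 10 were called, 2 in each direction, beside 39.6% of all genes (21.5% higher and 18.1% lower). In UIRI+Nx d7 4 of 10 were called, 3 higher and 1 lower, beside 31.3% (17.3% and 14.0%). The groups did not overlap for Cp and Tfrc in UIRI d3 and in UIRI d7 (18.4% and 20.5% of all genes), and for Cp alone in UIRI+Nx d7 (17.1%). The median log2 fold change of the 10 genes was -0.28, -0.42 and -0.01 in the 3 comparisons, beside 0.00, 0.04 and 0.02 over all genes. These comparisons share the same 6 Control libraries.

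**Figure D1:**
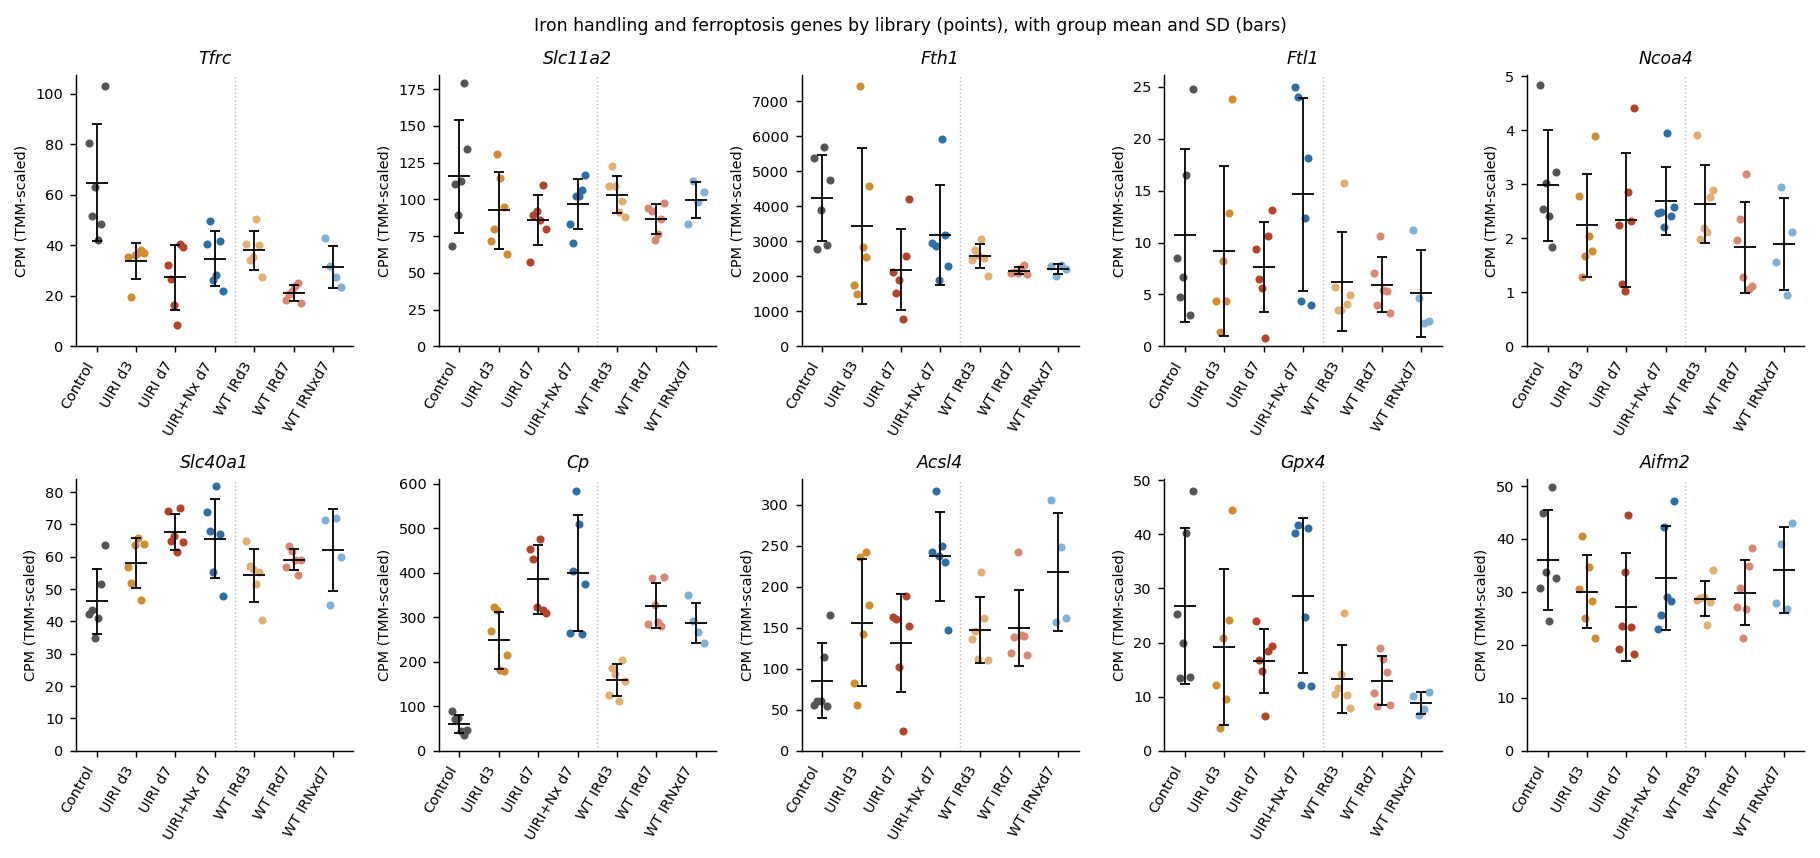
CPM of each of the 10 genes in every library (points) of the 7 groups, with the group mean and SD (bars); the dotted line parts the cohorts, which were scaled apart. Cp is above every Control library in all injured groups of the first cohort, while Gpx4, Ftl1 and Fth1 spread widely within groups.

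The receptor that brings in transferrin iron fell after injury. Tfrc (ENSMUSG00000022797, chr16:32608920-32632794) ran from 42.2 to 103 CPM in Control, with a median of 57.4. In UIRI d3 it ran from 19.5 to 38.0 (median 36.6), in UIRI d7 from 8.37 to 40.6 (median 29.6) and in UIRI+Nx d7 from 21.8 to 49.8 (median 34.4). No UIRI d3 or UIRI d7 library reached the lowest Control library, and the nephrectomy group overlapped with Control. The log2 fold change against Control was -0.94 ± 0.29 (SE) in UIRI d3 (edgeR adjusted p = 0.015), -1.25 ± 0.30 in UIRI d7 (adjusted p = 0.0013) and -0.90 ± 0.29 in UIRI+Nx d7 (adjusted p = 0.020). Control replicate 6 held the highest value, and without it the calls in UIRI d3 (-0.76, edgeR adjusted p = 0.053) and UIRI+Nx d7 (-0.72, adjusted p = 0.069) were lost. The latter was also lost without UIRI+Nx d7 replicate 6 (edgeR adjusted p = 0.053). With total count scaling the fold change was -0.68 in UIRI d3 (edgeR adjusted p = 0.083) and -0.64 in UIRI+Nx d7 (adjusted p = 0.11), while UIRI d7 stayed called. Within block 1a the UIRI d7 value was -1.50 (edgeR adjusted p = 0.060, 3 against 3), and within block 2b the UIRI+Nx d7 value was -1.22 (adjusted p = 0.19, 2 against 2). Proximal tubule markers fell in the same comparisons, 7, 8 and 6 of 8 called lower and none at 0. Their part in the Tfrc result was not tested.

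Tfrc also fell with time in the second cohort. WT IRd3 ran from 27.4 to 50.4 CPM (median 37.7) and WT IRd7 from 17.0 to 25.0 (median 21.3). Replicates 1 to 4 of WT IRNxd7 gave 42.9, 32.0, 27.5 and 23.4 CPM. Day 7 without nephrectomy lay wholly below day 3. Nephrectomy replicates 1 to 3 lay within the day 3 range, and replicate 4 within that of day 7 without nephrectomy. The day 7 to day 3 difference was -0.85 ± 0.16 (edgeR adjusted p = 0.0025). With the library block as a term it was -0.75 and no longer called (edgeR adjusted p = 0.076), and within block 2a it was -0.98 (adjusted p = 0.041, 2 against 6). WT IRd3 lay in block 2a alone. Red blood cell markers, whose precursors are known for high Tfrc, fell in the same comparison, with all 5 called lower. Their sum went from 232 to 807 CPM to 75.5 to 186 CPM, and none was at 0. In IRNxd7 all 5 were also lower against IRd3, where Tfrc was not called (-0.27 ± 0.18). Against IRd7, 2 of the 5 were lower in IRNxd7, while Tfrc gave 0.58 ± 0.18, not called by edgeR. The part of these markers in the Tfrc result was not tested. In the first cohort the Tfrc difference between UIRI d7 and UIRI d3 was -0.31 ± 0.29 (edgeR adjusted p = 0.74). The difference between the cohorts was 0.55 ± 0.36 (edgeR adjusted p = 0.9998 in a joint fit).

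DMT1, the endosomal iron carrier, was called in none of the 9 comparisons. Slc11a2 (ENSMUSG00000023030, chr15:100387898-100425072) ran from 68.0 to 179 CPM in Control (median 112), 62.8 to 131 in UIRI d3, 57.7 to 110 in UIRI d7 and 70.6 to 117 in UIRI+Nx d7. Its log2 fold changes against Control were -0.32 ± 0.21, -0.43 ± 0.21 and -0.25 ± 0.21, with edgeR adjusted p of 0.26, 0.11 and 0.40. Without Control replicate 1 UIRI d7 was called lower (-0.55, edgeR adjusted p = 0.037). Medians in the second cohort were 104 (IRd3), 89.3 (IRd7) and 102 CPM (IRNxd7), and the groups overlapped.

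Among the storage genes only the ferritin heavy chain was called, once and near the threshold. Fth1 (ENSMUSG00000024661, chr19:9980598-9985098) ran from 2799 to 5690 CPM in Control (median 4326), 1507 to 7438 in UIRI d3 (median 2709), 795 to 4225 in UIRI d7 (median 2024) and 1889 to 5938 in UIRI+Nx d7 (median 2906). All 3 injured groups overlapped with Control. UIRI d7 differed from Control by -0.95 ± 0.37 (edgeR adjusted p = 0.044), while UIRI d3 (-0.30 ± 0.37, adjusted p = 0.59) and UIRI+Nx d7 (-0.41 ± 0.37, adjusted p = 0.44) were not called. The UIRI d7 call was lost without any of UIRI d7 replicates 1 to 5 or Control replicates 1, 3, 4 or 6 (edgeR adjusted p from 0.052 to 0.092), and with total count scaling (-0.57, adjusted p = 0.22), with no filter on low counts (-0.94, adjusted p = 0.057) and within block 1a (-1.41, adjusted p = 0.060, 3 against 3). With a term for the library block it was -1.32 (edgeR adjusted p = 0.00080). UIRI d3 gave -1.28 within block 1a, which was called (edgeR adjusted p = 0.018, 2 against 3), and -0.22 within block 2b, which was not (adjusted p = 0.75).
The second cohort's Fth1 libraries lay close together, at 2026 to 3071 CPM in IRd3, 2068 to 2325 in IRd7 and 2000 to 2341 in IRNxd7. Day 7 differed from day 3 by -0.26 ± 0.11 without a call (edgeR adjusted p = 0.19).

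Counts of the ferritin light chain and of its lysosomal adaptor were low and gave no call. Ftl1 (ENSMUSG00000050708, chr7:45457944-45459884) ran from 2.99 to 24.8 CPM in Control, 1.37 to 23.8 in UIRI d3, 0.803 to 13.1 in UIRI d7 and 3.99 to 24.9 in UIRI+Nx d7. These ranges span up to 17.4-fold within a group, and single libraries held as few as 7 counts. Light chain pseudogenes were counted apart, and Ftl1-ps1 received 4888 counts over all libraries. It held up to 640 counts in a library, and Ftl1 itself at most 409. With 75.5% of the words of its 3′ end shared, low counts of Ftl1 cannot be read as low expression. Ncoa4 (ENSMUSG00000056234, chr14:32159865-32179855) ran from 1.83 to 4.84 CPM in Control, and its group medians from 1.63 (WT IRd7) to 2.78 CPM (Control). A WT IRd7 library held as few as 6 counts of Ncoa4, and whether its low counts mean low expression was not tested. The 95% interval of the UIRI d7 to Control difference was wide, -1.65 to 0.70 for Ftl1 and -1.03 to 0.27 for Ncoa4. Over the 16 libraries of the second cohort Ftl1 ran from 2.22 to 15.7 CPM.

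Of the export genes, ceruloplasmin was higher in all 3 injured groups and ferroportin was called at day 7 alone. Of the 10 genes ceruloplasmin moved by the most against Control. Cp (ENSMUSG00000003617, chr3:19957054-20009145) ran from 36.4 to 88.3 CPM in Control (median 58.3), 180 to 324 in UIRI d3 (median 242), 309 to 476 in UIRI d7 (median 377) and 263 to 583 in UIRI+Nx d7 (median 388). Every injured library exceeded every Control library. The log2 fold changes were 2.05 ± 0.24 (edgeR adjusted p = 2.2e-07), 2.68 ± 0.25 (adjusted p = 3.1e-09) and 2.74 ± 0.25 (adjusted p = 3.5e-09). All held within blocks 1a and 2b, where both groups were present, at 1.96 to 2.97.
Markers of macrophages, which make ceruloplasmin, rose in the same comparisons, 9, 10 and 9 of 10 called higher, none at 0, and their part in the result was not tested. Hepatocyte markers, from the main source of plasma ceruloplasmin, summed to 4.47 to 56.3 CPM over the first cohort, with Serpina1c at 0 in all UIRI d3 libraries.

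Cp was higher on day 7 than on day 3 in the second cohort. It ran from 112 to 205 CPM in IRd3 (median 165) and 281 to 390 in IRd7 (median 307), and replicates 1 to 4 of IRNxd7 gave 349, 291, 268 and 243 CPM. Neither day 7 group overlapped with day 3. IRd7 exceeded IRd3 by 1.03 ± 0.15 (edgeR adjusted p = 0.00024) and IRNxd7 exceeded it by 0.85 ± 0.17 (adjusted p = 0.0037). Macrophage markers summed to 931 to 1441 CPM in IRd3, 1920 to 3730.5 in IRd7 and 1550 to 2289 in IRNxd7, with 5 and 2 of 10 called higher against IRd3, and their part in the result was not tested. In the first cohort UIRI d7 against UIRI d3 gave 0.64 ± 0.23 (edgeR adjusted p = 0.18) and UIRI+Nx d7 against UIRI d3 0.69 ± 0.23 (adjusted p = 0.091), with overlap in both. Neither difference between the cohorts was called (-0.39 ± 0.29 and -0.16 ± 0.31).

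Ferroportin, the iron exporter, was higher at day 7. Slc40a1 (ENSMUSG00000025993, chr1:45908068-45926523) ran from 35.0 to 63.6 CPM in Control (median 43.0), 46.7 to 65.8 in UIRI d3 (median 60.1), 61.5 to 74.9 in UIRI d7 (median 65.7) and 47.8 to 81.8 in UIRI+Nx d7 (median 67.4). One Control library, replicate 6, reached into the range of UIRI d7. The log2 fold change was 0.55 ± 0.15 in UIRI d7 (edgeR adjusted p = 0.0047) and 0.51 ± 0.15 in UIRI+Nx d7 (adjusted p = 0.011). In UIRI d3 it was 0.33 ± 0.15 and not called (edgeR adjusted p = 0.097), but it was called without Control replicate 6 (0.44, adjusted p = 0.025) and with total count scaling (0.60, adjusted p = 0.0030). Within block 2b, 2 libraries against 2, the UIRI+Nx d7 difference was 0.01 (edgeR adjusted p = 0.99), and within block 1a it was 0.69 (adjusted p = 0.019). Macrophages are known for high ferroportin, and the macrophage marker sums given above rose beside it; their part was not tested. Second cohort medians were 55.7, 59.1 and 65.6 CPM in IRd3, IRd7 and IRNxd7, with overlap and no call.

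Of the ferroptosis genes, Acsl4, which makes membranes prone to peroxidation, was called in the nephrectomy group alone. Acsl4 (ENSMUSG00000031278, chrX:142317993-142390535) ran from 55.1 to 166 CPM in Control (median 60.3), 56.3 to 243 in UIRI d3 (median 160.0), 24.3 to 189 in UIRI d7 (median 156) and 147 to 317 in UIRI+Nx d7 (median 240). All 3 injured groups overlapped with Control. The nephrectomy group exceeded Control by 1.48 ± 0.39 (edgeR adjusted p = 0.0042), with 2.16 within block 1a (adjusted p = 1.0e-04) and 0.80 within block 2b (adjusted p = 0.46). UIRI d3 gave 0.88 ± 0.38 (edgeR adjusted p = 0.082) and UIRI d7 0.63 ± 0.38 (adjusted p = 0.20). Both were called with total count scaling (edgeR adjusted p = 0.023 and 0.032). UIRI d3 was called without UIRI d3 replicate 2 (1.05) or Control replicate 6 (1.18), and UIRI d7 without UIRI d7 replicate 4 (0.85), whose 24.3 CPM was the lowest value of all.
Second cohort levels ran from 110 to 217 CPM in IRd3 and 116 to 242 in IRd7, and replicates 1 to 4 of IRNxd7 gave 306, 157, 248 and 161 CPM.

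The enzymes that hold ferroptosis back were not called in any comparison. Gpx4 (ENSMUSG00000075706, chr10:80047166-80056439) ran from 13.4 to 48.1 CPM in Control (median 22.6), 4.20 to 44.6 in UIRI d3 (median 16.4), 6.42 to 23.9 in UIRI d7 (median 17.7) and 12.04 to 41.8 in UIRI+Nx d7 (median 32.6). Over all 16 libraries of the second cohort it ran from 6.62 to 25.5 CPM. Its log2 fold changes against Control were -0.47 ± 0.44, -0.68 ± 0.44 and 0.11 ± 0.44, and the spread within each group covered them. Aifm2 (ENSMUSG00000020085, chr10:61715263-61739260) ran from 24.5 to 49.7 CPM in Control and from 18.3 to 47.2 in the injured groups of the first cohort. It gave -0.26 ± 0.23, -0.41 ± 0.23 and -0.15 ± 0.23 against Control, and without UIRI d7 replicate 4 the value for UIRI d7 was -0.61 and called (edgeR adjusted p = 0.030). Its medians in the second cohort were 28.7, 28.9 and 33.5 CPM in IRd3, IRd7 and IRNxd7.

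**Figure D2:**
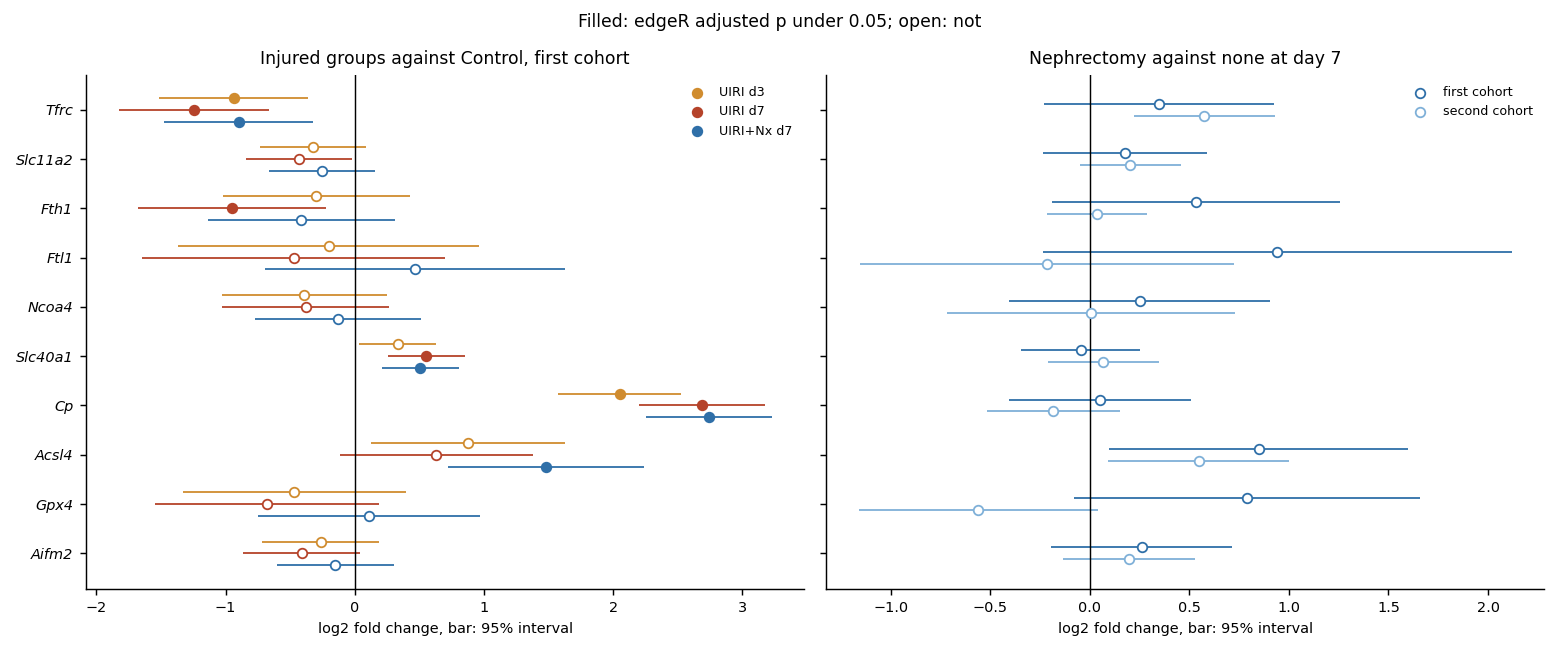
Log2 fold change of the 10 genes (points, bars 95% intervals) for the injured groups against Control on the left and for nephrectomy against none at day 7 in the 2 cohorts on the right; filled points passed the edgeR threshold. Cp stands to the right of 0 and Tfrc to the left in all 3 Control comparisons, and no point on the right is filled.

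Removal of the other kidney, the study's main comparison, gave no call among the 10 genes in either cohort. In the first, UIRI+Nx d7 against UIRI d7 had 6.62% of all genes called by edgeR, and 1 of the 10 (Acsl4) had an unadjusted p under 0.05, as did 20.5% of all genes. DESeq2 called none of the 10 and 8.18% of the genes to which it gave an adjusted p. The sign was positive for 9 of 10, with a median of 0.30 beside -0.01 over all genes, and Cp, at 0.05, turned negative with total count scaling. The values were 0.85 ± 0.38 for Acsl4 (edgeR adjusted p = 0.20), 0.94 ± 0.60 for Ftl1, 0.79 ± 0.44 for Gpx4, 0.53 ± 0.37 for Fth1 and 0.35 ± 0.29 for Tfrc. UIRI d7 replicate 4 held the lowest level of its group for 6 of the 10 genes.
In the second cohort 5.24% of all genes were called between IRNxd7 and IRd7 by edgeR, and 2 of the 10 (Tfrc and Acsl4) had an unadjusted p under 0.05 (18.8% of all genes). Tfrc gave 0.58 ± 0.18 (edgeR adjusted p = 0.070), and it was the 1 gene of the 10 called by DESeq2 (0.58, adjusted p = 0.039), which called 6.92% of all genes. Its edgeR call was gained without WT IRNxd7 replicate 4 (0.69, adjusted p = 0.041), and the value was 0.92 within block 2a and 0.20 within block 2c. Acsl4 gave 0.55 ± 0.23 (edgeR adjusted p = 0.20). Matched by title number alone, IRNxd7 held more Acsl4 and Aifm2 and less Gpx4 than IRd7 in each of 4 pairs of libraries. The share of all genes with the same sign in each pair was not counted. The labels do not say that equal numbers mark a pair, and IRd7 replicates 5 and 6 had no match. With the replicate block none of these genes was called (Acsl4 0.47, Aifm2 0.30 and Gpx4 -0.65, edgeR adjusted p = 0.30, 0.30 and 0.11). Gpx4 had opposite signs in the cohorts, 0.79 against -0.56, a difference of 1.34 ± 0.60 with an unadjusted p of 0.032 and an edgeR adjusted p of 0.57. No gene of 16606 was called for a difference between the cohorts (1411 with an unadjusted p under 0.05).

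Between day 3 and day 7 the first cohort gave no call among the 10 genes for UIRI d7 (2.6% of all genes called by edgeR) or UIRI+Nx d7 (5.13%), and none by DESeq2 (4.1% and 6.38% of all genes). In each, 1 of the 10, Cp, had an unadjusted p under 0.05, as did 13.6% and 18.2% of all genes. With the library block as a term Cp was called for UIRI+Nx d7 against UIRI d3 (0.60, edgeR adjusted p = 0.043). Within block 1a, 3 against 2, Acsl4 was called in that comparison (1.89, edgeR adjusted p = 0.010), and within block 2b its value was 0.03. In the second, IRd7 against IRd3 had 2 of 10 called, Cp higher and Tfrc lower, beside 8.56% of all genes (4.51% higher and 4.05% lower). Neither overlapped between the days, and 5.46% of all genes did not. IRNxd7 against IRd3 had 1 of 10 called, Cp, beside 6.02% (2.97% higher), and it alone did not overlap (6.79% of all genes).

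Ratios between 2 genes of the same library do not depend on scaling. The log2 ratio of Acsl4 to Gpx4 counts was 1.70 ± 0.37 (SD, n = 6) in Control, 3.21 ± 0.71 in UIRI d3, 2.84 ± 0.51 in UIRI d7 and 3.21 ± 0.69 in UIRI+Nx d7. All 6 nephrectomy libraries (2.49 to 4.30) lay above all Control libraries (1.14 to 2.18), while 1 library each of UIRI d3 (2.0) and UIRI d7 (1.92) lay within the Control range. In the second cohort the ratio was 3.53 ± 0.40 in IRd3, 3.56 ± 0.36 in IRd7 and 4.60 ± 0.51 in IRNxd7 (n = 4). The shared 3′ end of Gpx4 bears on this ratio.
For Tfrc to Fth1, the pair that iron regulatory proteins act on in opposite ways, the log2 ratio was -6.05 ± 0.54 in Control and -6.48 ± 0.72, -6.34 ± 0.43 and -6.48 ± 0.66 in UIRI d3, UIRI d7 and UIRI+Nx d7, within the spread of the libraries. WT IRd7 (-6.93 to -6.54) lay below WT IRd3 (-6.32 to -5.93) without overlap, and WT IRNxd7 spanned -6.56 to -5.74. The ratio of Fth1 to Ftl1 overlapped between all groups. Both genes have an element of the same kind in the 5′ UTR, printed above. The Ftl1 counts are low and uncertain for its shared 3′ end, so the size of this ratio is uncertain too.

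**Figure D3:**
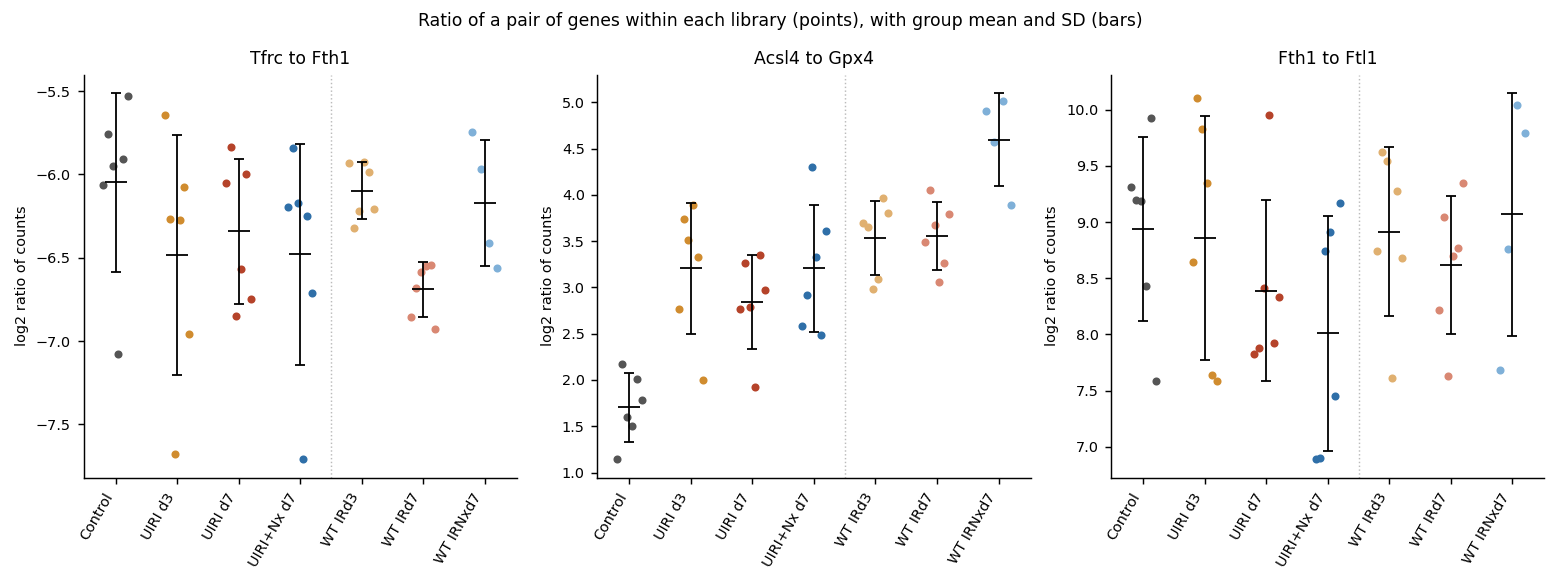
Log2 ratio of the counts of 2 genes in each library (points), with the group mean and SD (bars); the axes do not start at 0. Acsl4 to Gpx4 is lowest in Control, Tfrc to Fth1 separates WT IRd3 from WT IRd7, and Fth1 to Ftl1 overlaps in all groups.

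The 10 genes did not move as a block from library to library. Over the 45 pairs of genes, Pearson's r of log2 CPM ran from -0.71 to 0.95 with a median of 0.00 in the 24 libraries of the first cohort, and from -0.68 to 0.73 in the 16 of the second. The highest over the 24 libraries was that of Gpx4 with Ftl1, at 0.95, and it was 0.60 over the 16. These are the genes whose counts are uncertain for their shared 3′ ends. Libraries share depth, block and group, so these values describe the data alone. Among all other named genes the closest to Cp over the first cohort were Fstl1 (r = 0.96) and Edn1 (0.96), which gave 0.70 and 0.79 in the second. Tfrc was closest to Bcar3 (0.93, then 0.49). Gpx4 was closest to Mrps21 (0.96, then 0.81) and Gapdh (0.94, then 0.83), and Fth1 to Ndufa7 (0.92, then 0.61) and Sh3yl1 (0.90, then 0.59). Aifm2 was closest to Kctd9 (0.93, then 0.78) and Cblc (0.92, then 0.80), and Ftl1 to Pfn2 (0.95, then 0.79) and Dctn6 (0.93, then 0.74). Slc11a2 was closest to Fam210b (0.92, then -0.27) and Aph1a (0.88, then 0.38), and Ncoa4 to Xrcc6 (0.85, then 0.071) and Rps27l (0.81, then 0.13). For Acsl4 the closest were Rps21 (0.94, then 0.22) and Id3 (0.94, then 0.73), and for Slc40a1 Cfi (0.84, then 0.40) and Gc (0.83, then 0.31).

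Other genes of the pathway were counted in 4 lists of 67 genes. In these comparisons 32.7%, 39.6% and 31.3% of all genes were called against Control in UIRI d3, UIRI d7 and UIRI+Nx d7. Of those for iron transport and storage, 16 were tested, and 3 were higher and 3 lower in UIRI d3 against Control, 5 and 5 in UIRI d7, and 3 and 3 in UIRI+Nx d7, or 6, 10 and 6 of the 16 in either direction. With nephrectomy 0 of the 16 were called in the first cohort (6.62% of all genes) and 1 of 17 in the second, lower (5.24%). Transferrin (Trf), the carrier that Tfrc binds, rose from 12.8 to 37.0 CPM in Control to 31.7 to 63.9 in UIRI d3, 110 to 210 in UIRI d7 and 78.0 to 212 in UIRI+Nx d7. Its log2 fold changes were 0.86, 2.54 and 2.49 (edgeR adjusted p = 0.012, 3.1e-08 and 6.4e-08), and it rose from day 3 to day 7 in both cohorts (1.68 and 1.41, adjusted p = 0.00042 and 8.9e-06). Against Control the receptor was lower and its ligand higher in all 3 injured groups. Within block 2b the UIRI d3 value of Trf was 0.35 and not called (edgeR adjusted p = 0.51). Aco1, which as IRP1 binds the elements printed above, fell from a median of 270 CPM in Control (151 to 301) to 135, 99.99 and 134 in UIRI d3, UIRI d7 and UIRI+Nx d7 (-0.91, -1.38 and -0.89, edgeR adjusted p = 0.0046, 5.7e-05 and 0.0062). Slc39a8, a metal importer, fell by 1.68, 2.04 and 1.63 on the log2 scale. Steap3, a ferrireductase of endosomes, rose in UIRI d3 and UIRI d7 (0.67 and 0.70), with 0.18 for UIRI d3 within block 1a (edgeR adjusted p = 0.63). Slc25a28, a mitochondrial iron importer, fell in UIRI d3 by 0.54, a call lost with total count scaling (edgeR adjusted p = 0.32) and without any of Control replicates 1, 3, 4 or 6 or UIRI d3 replicates 1 to 4 (adjusted p from 0.051 to 0.083).

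Of the heme and siderophore genes, 12 were tested, and 4 were higher and 2 lower in UIRI d3, 3 and 3 in UIRI d7, and 5 and 1 in UIRI+Nx d7, so 6 of 12 each time beside the 32.7%, 39.6% and 31.3% of all genes. Lcn2, which binds iron siderophores and is a marker of tubule injury, rose from 0.934 to 4.19 CPM in Control to 47.4 to 534, 47.5 to 218 and 68.8 to 444 CPM (6.12, 5.51 and 6.55, edgeR adjusted p = 1.4e-08, 4.0e-08 and 7.4e-09). Hmox1, which frees iron from heme, was highest on day 3, at 114 to 278 CPM against 35.0 to 78.3 in Control (1.63, edgeR adjusted p = 3.1e-06). It was lower again on day 7 in both cohorts (-1.37 and -0.88 against day 3, edgeR adjusted p = 0.00079 and 0.0033). Hp, which binds free hemoglobin, rose by 3.76 in UIRI d3 (edgeR adjusted p = 0.00012). It ran from 0.432 to 4.79 CPM in Control and from 4.95 to 93.9 in UIRI d3 (median 11.6). UIRI d3 replicates 3 and 4, at 93.9 and 62.9 CPM, lay far above the others. Slc22a17, the lipocalin 2 receptor, fell by 1.07 (edgeR adjusted p = 0.00024).
With nephrectomy 3 of the 12 were called in the first cohort, all higher, beside 6.62% of all genes. In the second cohort 2 of the 12 were called, Lcn2 and Fech, both higher, beside 5.24%. Lcn2 gave 1.08 there (edgeR adjusted p = 0.0057). In the first cohort it gave 1.04 (edgeR adjusted p = 0.22) and was called only with the library block as a term (1.34, adjusted p = 0.028). Fech, which puts iron into heme, gave 63.5 to 139 CPM in UIRI+Nx d7 against 40.1 to 74.1 in UIRI d7 (0.68, edgeR adjusted p = 0.024) and 66.0 to 94.8 in WT IRNxd7 against 49.2 to 55.7 in WT IRd7 (0.59, adjusted p = 0.0060). The first of these calls was lost with the compared groups alone in the fit (edgeR adjusted p = 0.12) and without UIRI d7 replicate 1 or 2 or UIRI+Nx d7 replicate 4 or 6 (edgeR adjusted p from 0.051 to 0.082). Cd163, a macrophage receptor for hemoglobin with haptoglobin, rose by 2.64 (edgeR adjusted p = 0.0013). It ran from 3.44 to 11.4 CPM in UIRI d7 and from 5.72 to 81.3 in UIRI+Nx d7, with overlap. Within block 1a it was 2.95 and not called (edgeR adjusted p = 0.33, 3 against 3). In the second cohort Cd163 gave 0.91 (edgeR adjusted p = 0.14), which was called with the replicate block (1.08, adjusted p = 0.032). Of the 10 macrophage markers, 0 were higher and 2 lower with nephrectomy in the first cohort, and 0 and 1 in the second. Alas1, the first enzyme of heme synthesis, rose by 1.30 (edgeR adjusted p = 0.024) and gave 0.23 in the second cohort (adjusted p = 0.78); that call was lost with the compared groups alone (edgeR adjusted p = 0.050) and without UIRI+Nx d7 replicate 2, 3 or 4 or UIRI d7 replicate 2, 3 or 4.

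Of the ferroptosis defence genes, all 18 were tested, and 3 were higher and 5 lower in UIRI d3, 3 and 6 in UIRI d7, and 4 and 4 in UIRI+Nx d7, or 8, 9 and 8 of the 18 beside the same shares of all genes. Genes of glutathione synthesis, which feeds Gpx4, were among the lower ones. Gclc ran from 243 to 795 CPM in Control and 135 to 231 in UIRI d3, 93.4 to 155 in UIRI d7 and 150 to 259 in UIRI+Nx d7 (-1.25, -1.79 and -1.17, edgeR adjusted p = 0.00011, 7.5e-07 and 0.00024). Gss fell by 0.80, 1.13 and 1.21 on the log2 scale. Mboat1, a lipid-remodelling enzyme, rose by 1.51, 1.41 and 1.23, and Gch1, which makes the radical trap tetrahydrobiopterin, rose by 1.82, 1.58 and 1.62.
Nqo1, a quinone reductase, was the 1 of the 18 defence genes called with nephrectomy in the first cohort, beside 6.62% of all genes. It gave 62.7 to 88.7 CPM in UIRI+Nx d7, 6.42 to 19.0 in UIRI d7 and 26.9 to 58.6 in Control. The nephrectomy difference was 2.48 ± 0.26 (edgeR adjusted p = 1.6e-06), and in the second cohort 1.49 ± 0.22 (adjusted p = 0.00043), with 28.1 to 41.6 CPM in IRNxd7 and 9.91 to 20.2 in IRd7. Within block 1a it was 2.65 (edgeR adjusted p = 0.095, 3 against 3), where no gene of the table was called.
With nephrectomy in the second cohort 4 of the 18 were called, all higher, beside 5.24% of all genes. With the replicate block 3 of these 4 kept the call.

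Of the genes that drive ferroptosis, 14 were tested, and 1 was higher and 4 lower in UIRI d3, 1 and 5 in UIRI d7, and 2 and 5 in UIRI+Nx d7. These 5, 6 and 7 of 14 stand beside 32.7%, 39.6% and 31.3% of all genes. With nephrectomy 1 of the 14 was called in the first cohort, higher (6.62% of all genes), and 1 in the second, lower (5.24%). Agps, an enzyme of ether lipid synthesis, fell by 1.75, 1.83 and 2.28 on the log2 scale, from a mean of 195 CPM in Control, and was lower with nephrectomy in the second cohort (-0.86, edgeR adjusted p = 0.0097), while the first cohort gave -0.46 without a call (adjusted p = 0.42). Por, a reductase that feeds lipid peroxidation, fell by 0.88, 0.97 and 0.61. Far1, of the same ether lipid pathway, fell by 1.11 in UIRI d3, a call lost with total count scaling (-0.86, edgeR adjusted p = 0.087) and without UIRI d3 replicate 1 or 2 (adjusted p = 0.051 and 0.053). Within block 2b, 3 libraries against 2, the UIRI d3 values of Aco1, Slc39a8, Hp, Fech, Cd163, Gch1, Agps, Por and Far1 kept their sign and were not called (edgeR adjusted p from 0.056 to 0.32). The medians of the 4 lists against Control lay between -0.37 and 0.24, beside 0.00 to 0.04 over all genes. Proximal tubule markers fell in the same comparisons, and their part in the lower calls was not tested.

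**Figure D4:**
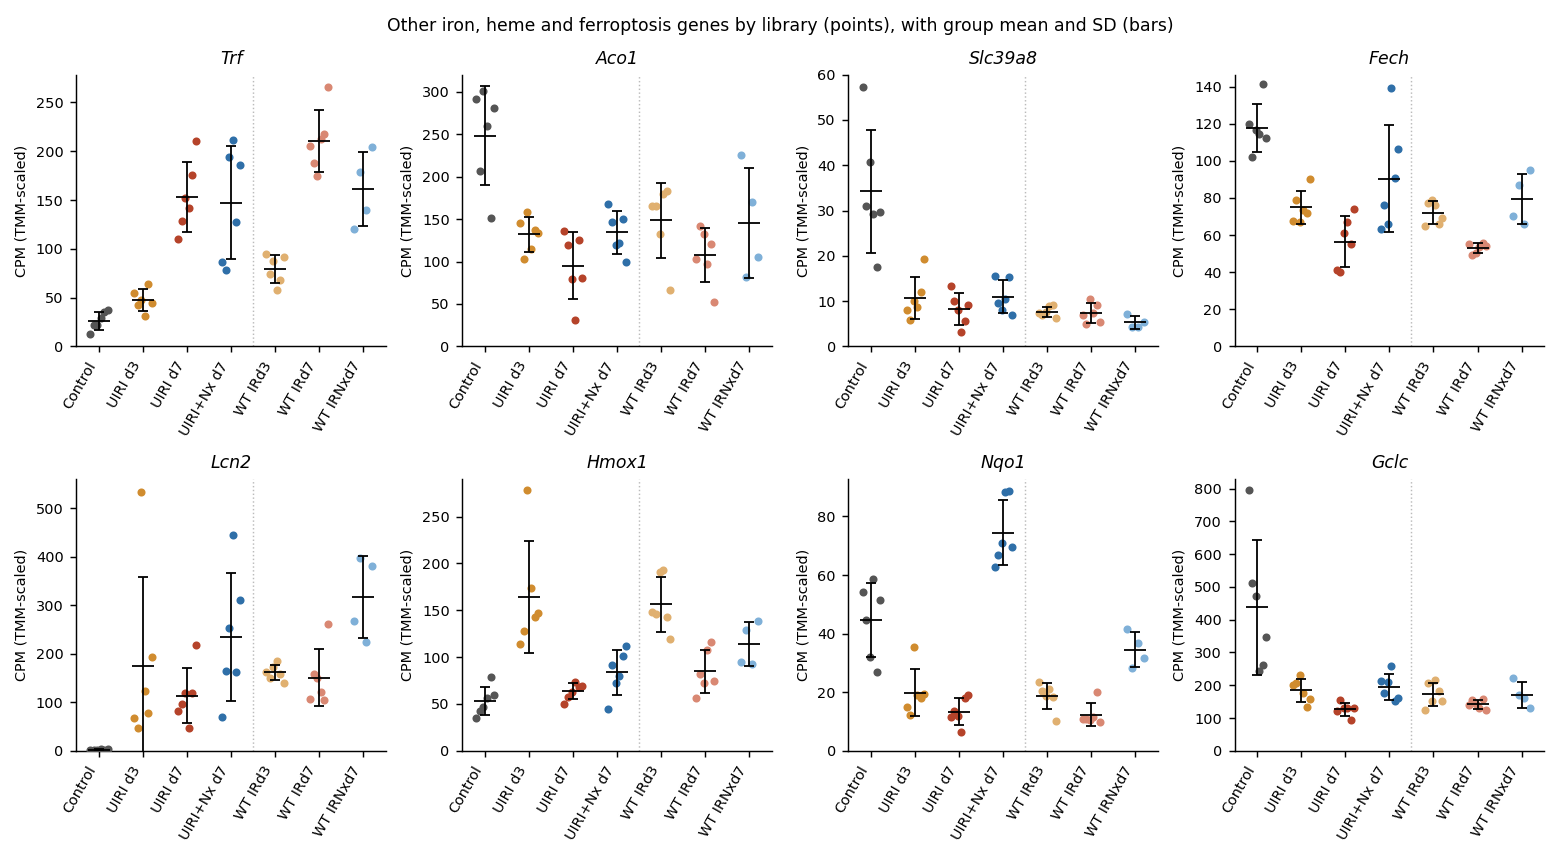
CPM of 8 other genes of the pathway in every library (points) of the 7 groups, with the group mean and SD (bars); the dotted line parts the cohorts. Trf rises to day 7, Hmox1 is highest on day 3, Aco1, Slc39a8 and Gclc are highest in Control, and Nqo1 and Fech are higher in the nephrectomy group of each cohort than at day 7 without it.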

How the data were processed

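Messenger RNA was read from its 3′ end (QuantSeq 3′ FWD, 500 ng of RNA) in 40 mouse kidney libraries. The authors deposited unnormalized counts, whole numbers per gene, as 1 table. Per the submitters' processing notes, Trimmomatic, STAR, HTSeq 0.6.1 and GRCm38 served the first cohort, and STAR 2.7.11b and GRCm39 the second; which annotation and strand setting they used is not given in the sources used here. Symbols were matched for 48349 of 48795 identifiers.

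Each cohort was fitted alone, all groups together, with edgeR 4.0.16 in R 4.3.3 (TMM, filterByExpr, quasi-likelihood F test, Benjamini-Hochberg over 15701 and 15543 genes, threshold 0.05). The standard error is the log2 fold change over the square root of F. Cohorts were compared in a joint fit of 16606 genes. DESeq2 1.42.0, other scalings, no filter, library blocks read from the column names, the replicate number as a block, and each library left out were alternatives. Nothing says whether replicates within a group are separate animals in the second cohort, so p-values measure the spread between libraries. The fits were tested on simulated data in which 100 genes changed 2-fold and 100 changed 4-fold, with no library blocks. More genes were called in the real comparisons (5131 and 814), so the shares recovered describe the simulated setting alone. For UIRI d3 against Control 50% of 2-fold and 87% of 4-fold changes were recovered, with 9 false calls in 15501 unchanged genes. For IRNxd7 against IRd7 the shares were 59% and 83%, with 8 false calls in 15343. A gene without a call may therefore still have changed.

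Pairing by the replicate numbers of the titles was checked by correlating deviations from group means. All 4 pairs of IRNxd7 with IRd7 passed 0.1 (0.103 to 0.200). Pairs 1 and 2 lie in block 2a and 3 and 4 in 2c, so a shared block and a true pairing cannot be told apart. The labels state no pairing, and the replicate block was run only as an alternative to the unpaired test. In the other comparisons some pairs did not pass, with -0.41 to 0.43 over all 50. The 10 genes and the lists were chosen with earlier results of these data known. Named were all 10, up to 3 genes in each direction per list by adjusted p in UIRI d3 against Control and in UIRI+Nx d7 against UIRI d7 with a group mean of at least 5 CPM, and for each of the 10 the 2 named genes with the highest correlation, of which 1 is not reported here. A further column is titled UNDETERMINED, the usual name for reads that demultiplexing gave to no library; it entered no comparison.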

Additional observations from a re-analysis of the deposited data

Results flagged for a closer look

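Within groups, 6 of the 70 combinations of gene and group held a library far from the others, where chance gives about 1 in 20. Acsl4 was 242 CPM in WT IRd7 replicate 3, against 141 in the next library. Tfrc was 19.5 CPM in UIRI d3 replicate 2, against 35.2 in the nearest. WT IRd3 replicate 4 stood out for both genes with shared 3′ ends, with 25.5 CPM of Gpx4 (next 14.1) and 15.7 CPM of Ftl1 (next 5.74). UIRI+Nx d7 replicate 4 stood out for Fth1, at 5938 CPM (next 3177), and for Ncoa4, at 3.94 CPM (next 2.58). Its depth of 19039076 counts was the highest of its group, and the part of depth was not tested.

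A column titled UNDETERMINED, the usual name for reads that demultiplexing gave to no library, has no group and may mix several kidneys. In plain CPM on its total count 3 of the 10 genes lay above every Control library. The share of all genes that did so was not counted. Cp was at 208 (Wilson 95% interval 200.1 to 216, counting error only) against at most 80.7, Slc40a1 at 60.02 (55.9 to 64.5) against at most 52.8, and Acsl4 at 148 (142 to 155) against at most 138. All 3 lay within the range of the second cohort. Tfrc, at 35.03 (31.9 to 38.5), lay below the lowest Control library (36.2), a value its interval covers. It too was within the range of the second cohort (16.9 to 51.9).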

How the results depend on the processing

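No called value changed direction under any alternative run. With total count scaling 9 of the 90 values of the 10 genes in the 9 comparisons changed sign, none of them called. Within block 1a called genes of the 10 fell to 2 in UIRI d7 against Control (all genes 3233), and rose to 1 in UIRI+Nx d7 against UIRI d3 (all genes 1330, and 94 within 2b), while all genes called fell to 0 in UIRI+Nx d7 against UIRI d7 and in UIRI d7 against UIRI d3. Within block 2b all genes called were 2475 in UIRI d3 and 680 in UIRI+Nx d7 against Control, the latter with 1 of the 10. In the second cohort all genes called were 8 (2a) and 16 (2c) for IRNxd7 against IRd7, 313 (2a) for IRd7 against IRd3 and 339 (2a) for IRNxd7 against IRd3. With the library block as a term, genes of the 10 called were 1 in UIRI+Nx d7 against UIRI d3 (Cp, 0.60) and 1 in IRd7 against IRd3 (all genes 349). Fitting only the compared groups gave 584 genes for UIRI+Nx d7 against UIRI d7. DESeq2 gave 710 genes for UIRI d7 against UIRI d3 and 1 of the 10 for IRNxd7 against IRd7. The cause was not tested in these cases. In IRNxd7 against IRd7, where equal numbers also share a library block, the replicate block brought a call of Cd163 (1.08) and changed no other call of a gene named here. In the other comparisons the replicate block left 2, 4 and 4 of the 10 called against Control. It added 1 in UIRI+Nx d7 against UIRI d3 (Cp, 0.70, edgeR adjusted p = 0.049) and took away the Slc25a28 call in UIRI d3 (adjusted p = 0.061).

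Leaving out a library gave 2 to 3, 3 to 5 and 3 to 4 of the 10 against Control (all genes 4635 to 5081, 5710 to 6277 and 4451 to 4939). It gave 0 in UIRI+Nx d7 against UIRI d7 (all genes 695 to 1087), UIRI d7 against UIRI d3 (247 to 405) and UIRI+Nx d7 against UIRI d3 (524 to 914). In the second cohort it gave 0 to 1 for IRNxd7 against IRd7 (all genes 328 to 898), 2 for IRd7 against IRd3 (923 to 1537) and 1 for IRNxd7 against IRd3 (554 to 1147). All genes moved by over 1.5 times without UIRI d7 replicate 2 (263) or 3 (247), UIRI+Nx d7 replicate 3 (525) or 4 (524), WT IRNxd7 replicate 2 (328 against IRd7, 554 against IRd3) and replicate 4 (615 against IRd3).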
